A study of Mus musculus with 16 samples.

Results

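The transcripts described here are those of 10 genes by which mast cells are recognised, the proteases carboxypeptidase A3 (Cpa3), Mcpt4, Cma1, Tpsb2 and Tpsab1, the receptor genes Kit, Fcer1a and Ms4a2, the histamine enzyme Hdc and the transcription factor Gata2. They were chosen by name, as the probes whose gene name on the array is one of the 10. This gave 12 of the 41174 probes and 10 of the 28482 genes on the array, with 2 probes each for Cma1 and Gata2 and 1 for each of the others. For a gene with 2 probes the brighter one gave the main value.

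The tissue was the aorta of female C57BL/6 mice that carry an ApoE deficiency, which makes them prone to atherosclerosis. All 4 groups shared that genotype, ovariectomy at 4 to 5 weeks of age, a high-fat diet of the Western type and a pellet under the skin placed 2 weeks after ovariectomy. The groups were mice whose pellet released medroxyprogesterone acetate (MPA), the placebo group of MPA, mice whose pellet released norethisterone acetate (NET-A), and the placebo group of NET-A, with 4 samples in each. Both compounds are progestins, MPA of the hydroxyprogesterone and NET-A of the nortestosterone type, and their doses are not given in the labels. Pellets were built to last 90 days and the descending vessel, down to a little above the renal branches, was taken after 78 to 90 days. A letter in the title, M or N, tells the placebo groups apart, and each was set against the progestin that shares its slides. Nothing in the labels says whether the samples of a group are different mice, so every p-value rests on sample-to-sample spread that may be technical.

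Mast cells are tissue-resident cells of the blood lineage that lie in the adventitia and the fat around arteries and, in atherosclerosis, also in the plaque. They store proteases, histamine and heparin in granules and release them when IgE bound to the receptor FcεRI meets its antigen. The receptor tyrosine kinase Kit and its ligand, stem cell factor, keep them alive, and Gata2 is needed for their development. Mice have connective tissue mast cells, which hold chymases, tryptases and Cpa3, and mucosal mast cells, which hold Mcpt1 and Mcpt2.

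Upstream sequence is shown because Gata2 is itself one of the genes and because GATA factors bind sites of the kind AGATAA or AGATAG, in which the A at the start may also be a T. RefSeq windows on GRCm38.p6 were found for 8 of the 10 genes, all but Tpsb2 and Tpsab1. The 250 bases before the transcript start held at least 1 of these 6-letter words on either strand in 6 of the 8 genes. Kit and Gata2 have 2 windows each, so that 6 of 10 windows held a match, against 26.5% of all 32851 windows of that length. It lay 46 bases before the start in Cpa3, 103 in Mcpt4, 79 in Cma1, 92 in Fcer1a and 221 in Hdc, and Ms4a2 held 3 matches. The windows of Kit and of Gata2 held none, and no other word was searched. A match describes letters and is not a measured binding site. The windows of the 3 protease genes detected on all 16 arrays and of Ms4a2 follow 5′ to 3′ on the gene's strand, with the matches in capitals (TTATCT and CTATCT are the same words on the opposite strand).
Cpa3, chr3:20242182-20242431, minus strand: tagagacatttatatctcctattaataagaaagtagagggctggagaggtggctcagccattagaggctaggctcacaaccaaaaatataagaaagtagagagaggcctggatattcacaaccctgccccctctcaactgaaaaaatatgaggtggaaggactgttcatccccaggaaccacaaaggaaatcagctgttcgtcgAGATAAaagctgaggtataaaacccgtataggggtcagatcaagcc
Mcpt4, chr14:56062311-56062560, minus strand: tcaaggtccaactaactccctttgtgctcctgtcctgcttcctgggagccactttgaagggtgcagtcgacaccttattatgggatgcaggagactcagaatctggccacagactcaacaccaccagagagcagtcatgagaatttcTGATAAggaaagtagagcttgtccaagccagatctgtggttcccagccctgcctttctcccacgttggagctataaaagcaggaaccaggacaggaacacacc
Cma1, chr14:55944676-55944925, minus strand: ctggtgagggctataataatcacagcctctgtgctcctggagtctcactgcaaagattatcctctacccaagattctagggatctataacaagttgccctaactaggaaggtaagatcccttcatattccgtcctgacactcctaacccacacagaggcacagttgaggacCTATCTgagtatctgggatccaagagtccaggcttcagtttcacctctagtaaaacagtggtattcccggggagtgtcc
Ms4a2, chr19:11623720-11623969, minus strand: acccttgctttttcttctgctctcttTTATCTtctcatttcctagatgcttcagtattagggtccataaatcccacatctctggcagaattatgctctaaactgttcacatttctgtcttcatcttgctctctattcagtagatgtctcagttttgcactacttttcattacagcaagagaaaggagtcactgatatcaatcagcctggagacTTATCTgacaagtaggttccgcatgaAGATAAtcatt

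The tryptases are shown as probe sequences because 1 gene of the pair was detected and the other was not. Tpsb2 encodes the tryptase mMCP-6 and Tpsab1 the tryptase mMCP-7, which C57BL/6 mice are known to lack, and the RefSeq table lists Tpsab1 as a transcribed pseudogene. The probes (mm9, as the array files give them) align over 57 bases, of which 39 are identical and 18 differ, an identity of 68.4%. Capitals mark the bases that differ within the aligned stretch.
Tpsb2 probe, chr17:25504458-25504517, plus strand: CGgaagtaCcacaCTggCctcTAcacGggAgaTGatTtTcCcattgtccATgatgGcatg
Tpsab1 probe, chr17:25480640-25480699, minus strand: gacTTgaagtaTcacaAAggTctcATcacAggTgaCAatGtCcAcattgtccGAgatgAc

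Levels are given as log2 of the spot signal less the 75th percentile of the array, so that 0 is the signal of the probe at that percentile. A level says nothing of one gene against another, since probes differ in how they bind. Between 46.3% and 60.6% of spots were well above background on the arrays of the MPA experiment and between 62.3% and 78.5% on those of the NET-A experiment. The lowest share belonged to MPA replicate 2, whose 75th percentile signal was 165, against 514.6 to 992 on the other 7 arrays of that experiment. Within groups, arrays correlated over 14516 genes by 0.954 to 0.987. The experiments were scanned with different software versions on different slides, so levels set across them cannot be told apart from these. The labelled tissue showed smooth muscle, endothelial, fibroblast and adipocyte markers, with no gene of those lists below background on all 16 arrays.

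Cpa3, Mcpt4, Cma1, Hdc and Gata2 were well above background on all 16 arrays. Kit was so on 15, Tpsb2 on 13, Fcer1a on 9 and Ms4a2 on 7 arrays. Tpsab1 was not well above background on any of the 16 arrays, beside the related Tpsb2 on 13. Fcer1a, the IgE-binding chain of FcεRI, was well above background on 0 MPA arrays and 1 placebo array of the MPA experiment, and on all 8 arrays of the NET-A experiment. The mucosal protease gene Mcpt2, the related Mcpt9 and the basophil protease Mcpt8 were above background on 0 of the 16 arrays, and mucosal Mcpt1 on 6. Both connective tissue chymases, Mcpt4 and Cma1, were thus read on every array, while Mcpt2 and Mcpt9 were not read on any.

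**Figure D1:**
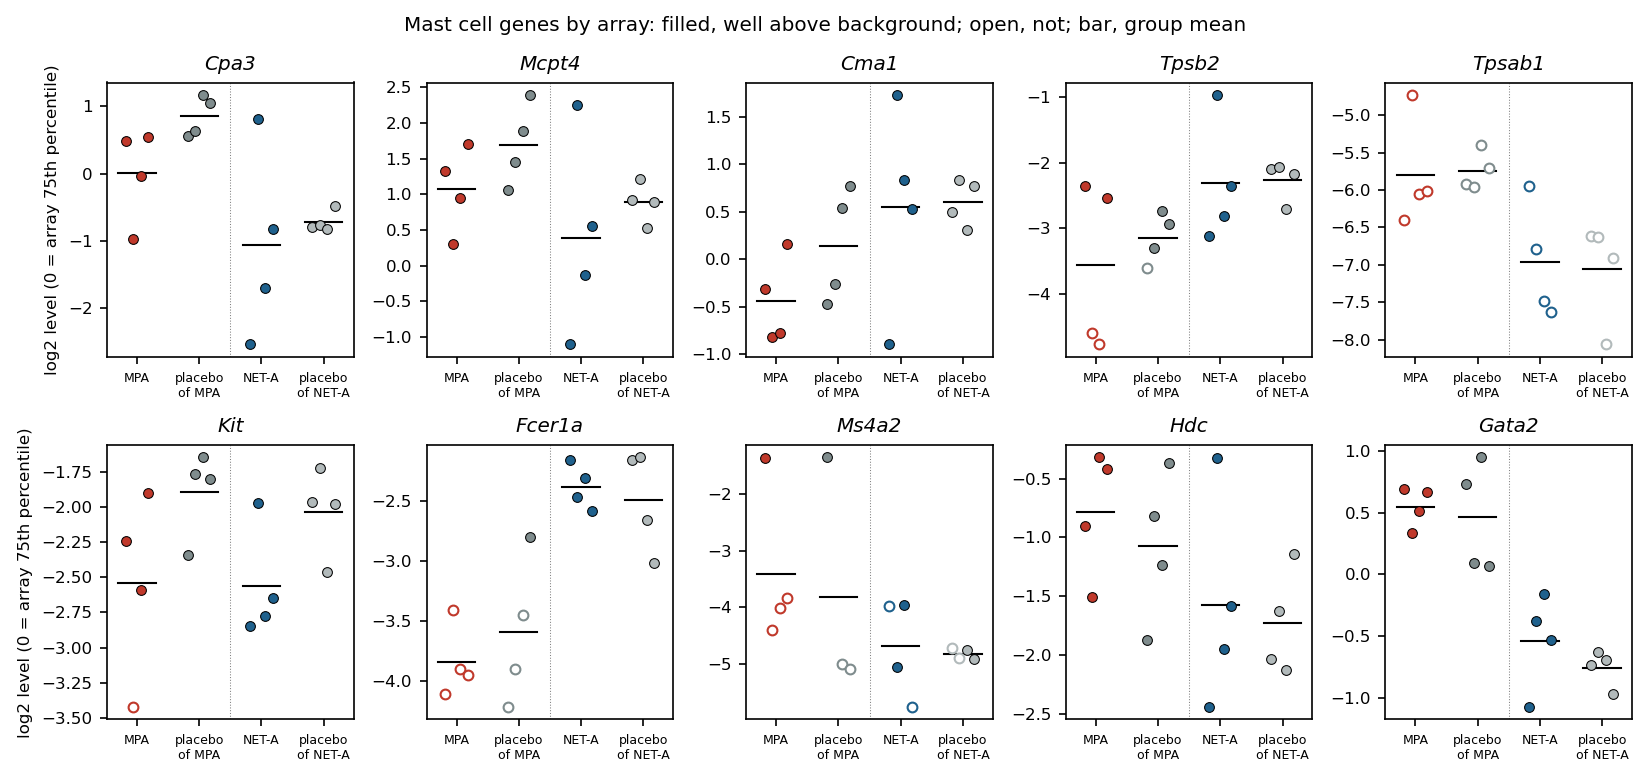
Log2 level (0 is the array's 75th percentile) of each of the 10 genes on each of the 16 arrays, by group. Filled points are well above background, open points are not, and bars are group means. Cpa3 reached at most 0.54 on MPA arrays against at least 0.55 on their placebo arrays, and the NET-A points of Cpa3, Mcpt4 and Cma1 spread further than those of their placebo.

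The first comparison asks how MPA alters the aortic level of these transcripts. All 4 granule proteases tested and Kit averaged lower in MPA-treated than in placebo aortas, Hdc and Gata2 averaged higher, and none of the 7 passed the test. Of all 15371 genes tested by limma, 0 passed an adjusted p of 0.05, which is 0% (954 genes, 6.21%, and 1 of the 7 had an unadjusted p under 0.05, with a smallest adjusted p of 0.662). Of the 7 genes tested, 5 lay below 0, where 52.2% of all genes did, and their median was -0.58 against -0.013 over all genes tested. Leaving out 1 array at a time moved the median between -0.79 and -0.35, and under normexp background correction it was -0.011. Most of the 7 varied together from array to array, so their signs are not separate observations. The other 3 of the 10, Tpsab1, Fcer1a and Ms4a2, did not reach the minimum of 4 of 8 arrays above background. In whole aorta, fewer mast cells and less RNA per mast cell cannot be told apart.

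Cpa3, the carboxypeptidase stored in mast cell granules, was read by a probe at chr3:20115674-20115733 (mm9). Its levels were 0.48, -0.98, -0.034 and 0.54 on the MPA arrays, replicates 1 to 4, and 0.55, 0.64, 1.17 and 1.05 on the placebo arrays. Each MPA array lay below each placebo array, although the highest MPA value and the lowest placebo value nearly touched. The difference was -0.85 ± 0.33 (SE, n = 4 each), a ratio of 0.555 with a 95% interval of -1.61 to -0.093 on the log2 scale (unadjusted p = 0.0318, adjusted p = 0.783, limma). Groups that did not overlap were found with MPA lower for 1.26% of all genes and for 1 of the 7, and with MPA higher for 2.33% of all genes and for 0 of the 7. Without MPA replicate 2, the dimmest array, the difference was -0.52. Within slide 1 it was -0.84 and within slide 2 it was -0.86.

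Mcpt4 (mMCP-4) is a chymase regarded as the mouse counterpart of human chymase and was read at chr14:56678589-56678648. Its levels were 1.33, 0.31, 0.95 and 1.70 on the MPA arrays, and 1.06, 1.46, 1.88 and 2.39 on the placebo arrays. The groups overlapped, with MPA replicate 2 lowest and placebo replicate 4 highest. The difference was -0.63 ± 0.36 (adjusted p = 0.854, limma), or -0.37 without MPA replicate 2.

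Cma1 (mMCP-5), a chymase with elastase-like activity in the mouse, had a main probe at chr14:56560454-56560513. Its levels were -0.31, -0.82, -0.77 and 0.16 under MPA, and -0.47, -0.26, 0.54 and 0.77 under placebo. Placebo replicates 1 and 2 lay within the MPA range and replicates 3 and 4 above it. The difference was -0.58 ± 0.33 (adjusted p = 0.854, limma). The second Cma1 probe is listed at chr14:56561491-56562550, a span of 1060 bases for a probe of 60 bases, and gave -0.50 ± 0.33.

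Tpsb2, the mast cell tryptase, was near background in this experiment, with 2 MPA and 3 placebo arrays well above it. Its levels were -2.35, -4.61, -4.78 and -2.54 under MPA, and -3.61, -3.31, -2.73 and -2.94 under placebo. The MPA arrays formed a brighter and a dimmer pair on either side of the placebo values. The difference was -0.42 ± 0.57 (adjusted p = 0.917, limma), and leaving out 1 array at a time moved it between -0.83 without MPA replicate 1 and -0.020 without MPA replicate 3.

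Kit, the receptor for stem cell factor, was read by 10 spots of a probe at chr5:76052287-76052346. Its levels were -2.24, -3.42, -2.59 and -1.90 on the MPA arrays, and -2.34, -1.77, -1.65 and -1.80 on the placebo arrays. MPA replicate 2 was lowest and not well above background. The difference was -0.65 ± 0.32 (unadjusted p = 0.0719, adjusted p = 0.835, limma), or -0.35 without MPA replicate 2. Ms4a2, the β chain of FcεRI, was above background on 1 MPA array and 2 placebo arrays, with 1 placebo value left out as an outlier spot, and was not tested.

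Hdc, the enzyme that makes histamine, was read at chr2:126419516-126419575. Its levels were -0.90, -1.50, -0.32 and -0.41 under MPA, and -1.87, -0.82, -1.23 and -0.37 under placebo, so that the groups overlapped. The difference was 0.29 ± 0.36 (adjusted p = 0.912, limma). Mouse neutrophils can also express Hdc. Of the 8 neutrophil markers the 6 tested lay above 0, where 52.2% of all genes lay below 0, with a median of 1.89. However, 1 of the 6 was well above background on 4 MPA arrays and only 1 placebo array, so it passed the filter through the MPA group. The log2 of the summed levels of the 6 was 5.21 to 7.01 under MPA and 2.49 to 4.46 under placebo. Such a sum is weighted to the brightest marker. Of the 8, 0 were below background on all 16 arrays. The part of neutrophils in the Hdc value was not tested.

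Gata2, which endothelial cells also express, was read at chr6:88156835-88156894. Its levels were 0.69, 0.33, 0.51 and 0.66 under MPA, within the placebo values of 0.73, 0.092, 0.95 and 0.070. The difference was 0.088 ± 0.23 (adjusted p = 0.962, limma), and the second probe, at chr6:88156362-88156421, gave 0.42 ± 0.22.

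**Figure D2:**
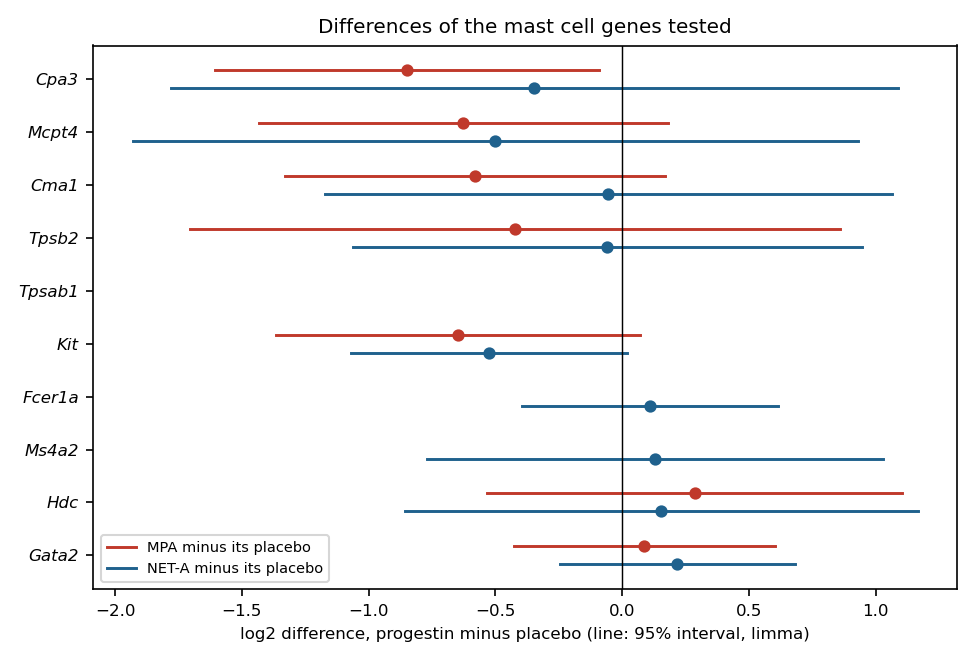
Log2 difference of each gene, MPA or NET-A minus its own placebo, with its 95% interval from limma. The interval of Cpa3 with MPA, -1.61 to -0.093, was the one that left out 0, before adjustment over all genes, and genes without a line were not tested.

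The second comparison asks the same of NET-A, where 9 of the 10 genes were tested, all but Tpsab1. None passed the test, as for 0 of all 21182 genes, 0% (1308 genes, 6.18%, and 0 of the 9 had an unadjusted p under 0.05, with a smallest adjusted p of 0.299, limma). Of the 9, 5 lay below 0, where 54.7% of all genes did, and their median was -0.055 against -0.024 over all genes tested. Kit had the smallest p of the 9, and the arrays of Cpa3, Mcpt4 and Cma1 were spread more widely under NET-A than under placebo.

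Cpa3 stood at -2.55, 0.82, -1.70 and -0.82 on the NET-A arrays, replicates 1 to 4, and at -0.80, -0.76, -0.82 and -0.48 on the placebo arrays. NET-A replicate 2 lay above every placebo array and the other NET-A arrays below every one, replicate 4 so narrowly that it equalled the lowest placebo value to 2 decimals. The difference was -0.35 ± 0.62 (adjusted p = 0.996, limma), or 0.15 without NET-A replicate 1 and -0.97 without NET-A replicate 2. Within slide 5, the one slide with 2 arrays of each group, it was 0.65. Slides 3 and 4 held 1 array of each group.

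Mcpt4 followed the same order of arrays, at -1.10, 2.25, -0.13 and 0.55 under NET-A and 0.93, 1.22, 0.53 and 0.90 under placebo. The difference was -0.50 ± 0.62 (adjusted p = 0.981, limma), with -0.0011 without NET-A replicate 1, -1.12 without NET-A replicate 2 and 0.69 within slide 5. Cma1 stood at -0.90, 1.73, 0.83 and 0.53 under NET-A and at 0.50, 0.83, 0.31 and 0.78 under placebo, a difference of -0.055 ± 0.49 (adjusted p = 0.997). The second Cma1 probe gave -0.77 ± 0.92. Tpsb2 stood at -3.12, -0.96, -2.82 and -2.36 under NET-A and at -2.09, -2.07, -2.70 and -2.17 under placebo, a difference of -0.058 ± 0.44. In all 4 protease genes NET-A replicate 1 was the lowest and NET-A replicate 2 the highest array of the group.

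Kit stood at -2.85, -1.97, -2.78 and -2.65 on the NET-A arrays and at -1.97, -1.73, -2.47 and -1.98 on the placebo arrays. NET-A replicates 1, 3 and 4 lay below every placebo array and replicate 2 within their range. The difference was -0.53 ± 0.24, with a 95% interval of -1.07 to 0.018 (unadjusted p = 0.0562, adjusted p = 0.811, limma), and -0.087 within slide 5.

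Fcer1a stood at -2.16, -2.47, -2.31 and -2.58 under NET-A and at -2.15, -2.14, -2.66 and -3.02 under placebo. The NET-A values lay within the placebo range, and the difference was 0.11 ± 0.22 (adjusted p = 0.997, limma). Ms4a2 stood at -3.98, -5.07, -3.96 and -5.77 under NET-A and at -4.72, -4.90, -4.77 and -4.91 under placebo, with 2 arrays of each group well above background. Its difference was 0.13 ± 0.39 (adjusted p = 0.997).

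Hdc stood at -2.44, -0.33, -1.95 and -1.58 under NET-A and at -2.03, -1.62, -2.12 and -1.14 under placebo, a difference of 0.15 ± 0.44 (adjusted p = 0.997, limma). As for the proteases, NET-A replicate 1 was lowest and replicate 2 highest. Gata2 stood at -1.07, -0.38, -0.16 and -0.53 under NET-A and at -0.73, -0.63, -0.69 and -0.97 under placebo, a difference of 0.22 ± 0.20 (adjusted p = 0.952). Its second probe gave 0.29 ± 0.21.

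The values of most of these genes were widely spread in the NET-A group. The SD of Cpa3 was 1.44 under NET-A and 0.16 under placebo, where the median gene had 0.287 and 0.258. For 1.15% of all 21113 genes with complete values the SD under NET-A was larger than that of Cpa3. Mcpt4 had an SD of 1.41 under NET-A and 0.28 under placebo, and Cma1 1.09 and 0.24. The SD was higher under NET-A than under placebo for 8 of the 9 genes, all but Fcer1a, and for 56.3% of all genes. Most of the genes varied together, so the 8 are not separate observations. Under MPA the SD was also higher than under placebo for Cpa3 (0.70 and 0.30), Kit (0.65 and 0.31), Tpsb2 (1.30 and 0.39) and Mcpt4 (0.59 and 0.57). It was lower under MPA for Cma1, Hdc and Gata2, and higher for 49.4% of all genes. These SDs rest on 4 arrays each and their difference was not tested.

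Within the NET-A group the order of Cpa3 from low to high, replicates 1, 3, 4 and 2, was also that of the share of spots well above background, 62.3%, 74.6%, 77.7% and 78.5%. It was also the order of the log2 of the summed levels of 10 adipocyte markers. The sums were 8.01, 8.48, 8.73 and 10.18 in NET-A replicates 1, 3, 4 and 2, against 8.78 to 9.31 in the placebo group. Of those 10 markers, 0 were below background on all 16 arrays. Fat markers were not alone in setting NET-A replicates 1 and 2 apart. Endothelial markers summed to 5.12 in replicate 1, their lowest, and 6.04 in replicate 2, their highest. Smooth muscle markers summed to 11.00 in replicate 1, their highest, and 10.65 in replicate 2, their lowest. In the MPA experiment 9 adipocyte markers summed to 10.45 to 10.58 under MPA and 10.30 to 10.68 under placebo. Cpa3 there ran from -0.98 to 0.54 under MPA and from 0.55 to 1.17 under placebo. Under MPA, replicate 2 had the lowest Cpa3, the lowest share of spots (46.3%) and the highest sum (10.58). In no group but NET-A did the order of Cpa3 match that of the share of spots or of the adipocyte sum. The NET-A placebo arrays had sums of 9.28, 8.78, 8.82 and 9.31 in replicates 1 to 4. Their Cpa3 levels were -0.80, -0.76, -0.82 and -0.48. Replicate 3, lowest for Cpa3, had the highest share of spots, 77.8%. The part of fat around the vessel, and of the share of spots detected, in these values was not tested.

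**Figure D3:**
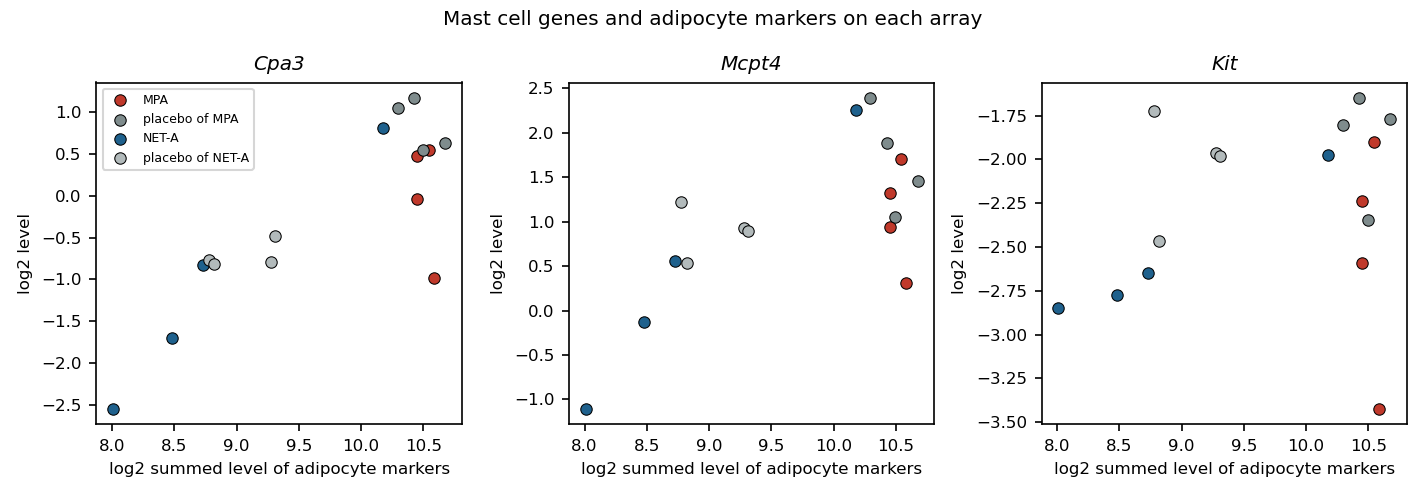
Log2 level of Cpa3, Mcpt4 and Kit on each array (vertical) against the log2 summed level of adipocyte markers (horizontal, 9 markers in the MPA and 10 in the NET-A experiment). The NET-A points run from 8.01 to 10.18 on the horizontal axis and Cpa3 runs with them from -2.55 to 0.82. The MPA points lie between 10.45 and 10.58, and the one at 10.58 has the lowest Cpa3, -0.98. In the placebo groups the order of Cpa3 differs from that of the markers. Endothelial and smooth muscle sums, not shown here, also had NET-A replicates 1 and 2 at their ends.

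The third comparison sets the response to MPA against the response to NET-A, each relative to its own placebo, over all 16 arrays. The doses are not known and the experiments were run apart, so this compares the 2 experiments as performed. None of the 7 genes tested in both experiments passed, as for 0 of all 15241 genes, 0% (1040 genes, 6.82%, and 0 of the 7 had an unadjusted p under 0.05, with a smallest adjusted p of 0.198, limma). Of the 7, 6 lay below 0, where 50.4% of all genes did. The difference of responses was -0.50 ± 0.74 for Cpa3, with a 95% interval of -2.07 to 1.07 (adjusted p = 0.944). It was -0.53 ± 0.61 for Cma1, -0.36 ± 0.76 for Tpsb2, -0.13 ± 0.75 for Mcpt4, -0.12 ± 0.41 for Kit, -0.13 ± 0.31 for Gata2 and 0.13 ± 0.59 for Hdc. All 7 intervals included 0, and that of Kit ran from -0.995 to 0.755, so the progestins were not told apart at these sizes.

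The genes varied together from array to array. With each array taken as its deviation from the group mean, Cpa3 and Mcpt4 had a Pearson correlation of 0.95 over 16 arrays, which placed Mcpt4 at rank 2 of 14515 genes. Cma1 had 0.84 (rank 146), Hdc 0.80 (rank 248), Tpsb2 0.80 (rank 251), Kit 0.75 (rank 464) and Gata2 0.39 (rank 2791). Within the MPA experiment alone Cpa3 and Mcpt4 had 0.87, and within the NET-A experiment 0.98, and Cpa3 and Kit had 0.94 and 0.77. The chymases Mcpt4 and Cma1 had 0.91. The points share arrays, labelling and scaling, and for Cpa3, Mcpt4 and Cma1 NET-A replicates 1 and 2 lie furthest from their group mean.

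The 10 genes most like Cpa3 by this measure were Cma2, Mcpt4, Il15, Bckdk, C130074G19Rik, Dnajc11, Fmo1, Wwox, the transcript ENSMUST00000061569 and Nrp1, with correlations of 0.91 to 0.96. The Cma2 probe names the Mcpt4 transcript among its accessions too, so its value (0.96) cannot be told apart from that of Mcpt4. Of 25 genes of the further mast cell lists, 19 had a correlation with Cpa3 above 0 and 6 below 0. Their median was 0.23, from -0.61 for Plcg1 to 0.74 for Kitl (rank 516). Of all 14515 genes, between 44.4% and 53.5% had a correlation above 0, and 0.23 stood at rank 4495.

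**Figure D4:**
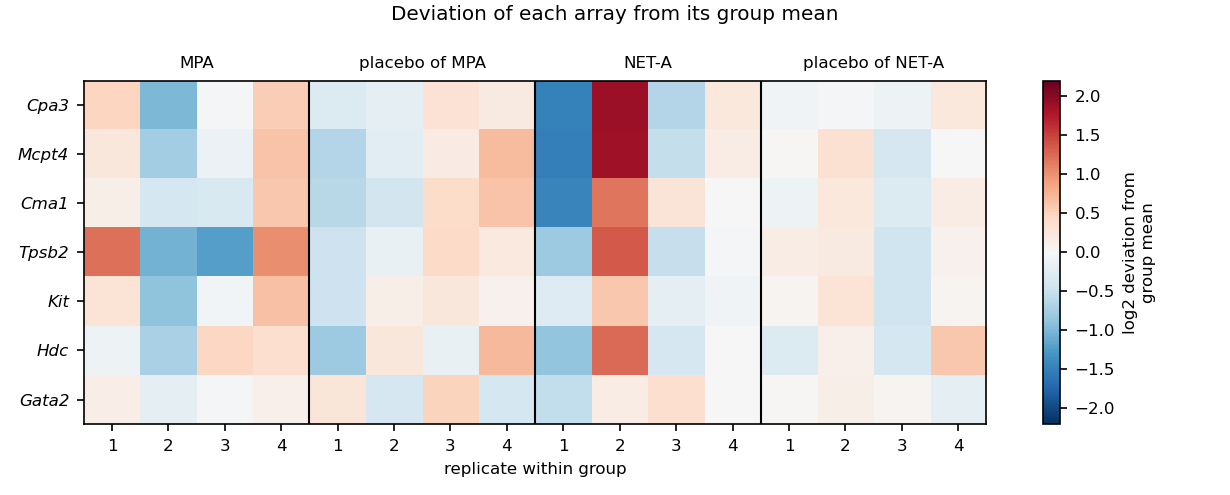
Deviation of each array from its group mean (colour, log2) for 7 genes (rows) on the 16 arrays (columns, by group and replicate). In the NET-A group replicate 1 is below and replicate 2 above the group mean in all 7 rows, and in the MPA group replicate 2 is below it in all 7.

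Further mast cell genes, on 4 lists, gave 0 calls in either comparison. Of all genes tested, 52.2% lay below 0 with MPA and 54.7% with NET-A. Of 10 other granule genes, 5 were tested with MPA, 4 of them below 0 (median -0.078), and 8 with NET-A, 2 of them below 0 (median 0.18). The tetraspanin Cd63 gave -0.33 ± 0.20 with MPA. Slc18a2, the transporter that loads amines into granules, differed by -0.41 ± 0.38 under MPA and by 0.34 ± 0.19 under NET-A. The transmembrane tryptase Tpsg1 gave 0.68 ± 0.38 with NET-A.

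Of 14 genes for receptors and their signalling, 7 of 10 tested lay below 0 with MPA (median -0.23) and 11 of 13 with NET-A (median -0.34). Lat2, an adaptor downstream of FcεRI, averaged -0.62 ± 0.29 under MPA relative to placebo (adjusted p = 0.816, limma) and -0.83 ± 0.32 under NET-A (unadjusted p = 0.0314, adjusted p = 0.771). For Syk, the kinase recruited by that receptor, the differences were -0.32 ± 0.31 under MPA and -0.55 ± 0.30 under NET-A. Macrophages also express both. All 10 macrophage markers lay below 0 in both comparisons, where 52.2% of all genes did with MPA and 54.7% with NET-A. The marker medians were -0.56 with MPA and -0.51 with NET-A. The macrophage markers summed to 4.93 to 5.66 under MPA and 5.49 to 6.41 under placebo over 9 markers, and to 4.78 to 5.41 under NET-A and 5.07 to 6.54 under placebo over 10, with 0 of the 10 below background on all 16 arrays. Their part in the values of these genes was not tested.

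Of 11 genes for mediators, 5 of 6 tested lay below 0 with MPA (median -0.16) and 7 of 9 with NET-A (median -0.16). Of all genes tested, 52.2% did so with MPA and 54.7% with NET-A. Among the 9, 1 gene was well above background on 3 NET-A arrays and only 1 placebo array. Tph1, which starts serotonin synthesis, differed by -1.20 ± 0.95 under MPA and by -0.78 ± 0.40 under NET-A. It was well above background on only 2 MPA and 3 NET-A arrays, and on 4 placebo arrays in each experiment. The histamine receptor Hrh1 gave -0.35 ± 0.28 with MPA. Hpgds, the prostaglandin D2 synthase of blood cells, gave -0.75 ± 0.33 with NET-A (adjusted p = 0.806, limma).

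Of 5 transcription factors, 4 were tested with MPA (median -0.011) and 5 with NET-A (median 0.12). With MPA the smallest p belonged to Tal1, at -0.044 ± 0.17, and Stat5b, at 0.035 ± 0.14. Stat5a, which acts downstream of Kit and cytokine receptors in many cells, gave 0.45 ± 0.12 with NET-A (unadjusted p = 0.0064, adjusted p = 0.631, limma). Each NET-A array lay above each placebo array, as for 1.62% of all genes, and the reverse held for 2.31%, while with MPA Stat5a gave -0.0021 ± 0.29. Mitf, a factor needed for mast cell development, was next by p with NET-A, at -0.11 ± 0.14. Of 4 basophil genes, Il3ra differed by -0.30 ± 0.25 under MPA and by -0.16 ± 0.28 under NET-A, and Prss34 by 0.27 ± 0.33 under NET-A.

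**Figure D5:**
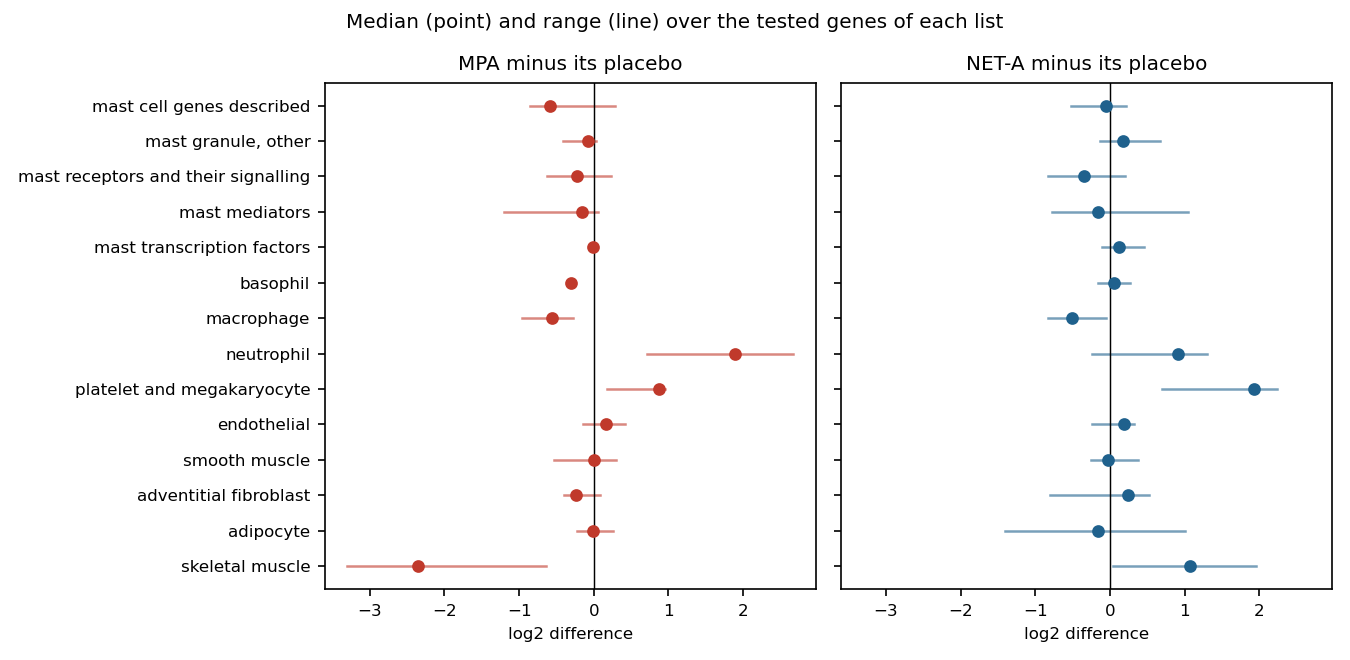
Median (point) and range (line) of the log2 differences, MPA or NET-A minus its own placebo, over the tested genes of each marker list. The mast cell genes described here had medians of -0.58 with MPA (-0.011 under normexp) and -0.055 with NET-A. In the same order they were -0.56 and -0.51 for macrophage, 1.89 and 0.91 for neutrophil and 0.87 and 1.93 for platelet markers. For skeletal muscle markers they were -2.36 and 1.07, with sums of 5.85 on placebo replicate 3 of MPA and 2.59 to 3.15 on its other placebo arrays. With MPA, 1 neutrophil marker was well above background on 4 MPA arrays and 1 placebo array. In the same comparison 1 skeletal muscle marker was so on 1 MPA and 3 placebo arrays. With NET-A, 1 skeletal muscle marker was so on 4 NET-A and 2 placebo arrays.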

How the data were processed

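Aortic RNA (100 ng per sample) was labelled with Cy3 and read on 16 one-colour Agilent arrays of 45018 spots. Per the file headers, Agilent Feature Extraction produced the deposited spot intensity, in version 10.7.1.1 for the MPA experiment and 11.0.1.1 for the NET-A experiment, with the background corrected and mm9 coordinates. A deposited series table holds the authors' log2 values, and how these were made is not stated. Compared with quantile-normalized arrays its columns correlated by 0.989 to 1.00, with medians of -0.027 to 0.016, so its scale, centring and direction are inferred. It served as an alternative.

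Spots flagged as outliers were left out (0.274% of values) and 0 spots were saturated. The log2 processed signal was averaged over the spots of a probe, and the array's 75th percentile over non-control probes was subtracted. The brightest probe stood for a gene. RefSeq accessions were matched for 26690 probes, and 3169 probes were renamed. The probes of the NET-A files, which carry no gene name, were named through their probe name in the MPA files. A gene entered a comparison when well above background on at least 4 of 8 arrays. Each progestin was compared with its placebo by limma 3.58.1 in R 4.3.3, two-sided, with a Benjamini-Hochberg threshold of 0.05 over all genes, and the difference of responses was fitted over 16 arrays. The limma fit of MPA against placebo was tested on simulated gene values, a simulation that did not cover normalization.

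The genes, lists and named-gene rule were chosen with earlier results of these data known. Of each further mast cell list and the basophil list the text names genes for each progestin against its placebo, not for the difference of responses. Named are the 2 genes with the smallest p, where as many were tested, and any whose groups do not overlap. The lists of other cell types are given by counts and medians, and the genes most like Cpa3 are the 10 with the highest correlation. Normexp correction used the mean spot signal in the MPA files and the median spot signal in the NET-A files, which hold no mean. The number of arrays limits the precision. Only sequence from the RefSeq tables and the array files is shown. The ends of the range of correlations with Cpa3, Kitl and Plcg1, were named after their values were seen.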

Additional observations from a re-analysis of the deposited data

Results flagged for a closer look

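In the placebo group of NET-A, Cpa3 stood apart on 1 of the 4 arrays: replicate 4 was at -0.48, against -0.82 to -0.76 on the others. In the same group Tpsb2 stood apart on replicate 3, at -2.70 against -2.17 to -2.07. Both arrays were far from the rest of their group relative to its whole range, as 2 of 32 groups checked, and chance marks about 1 in 20 groups. The placebo range of Cpa3 is narrow, with an SD of 0.16. None of the other groups checked held an array that stood apart in this way.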

How the results depend on the processing

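None of the mast cell genes tested passed the threshold under any of 22 alternatives for MPA, 21 for NET-A or 27 for the difference of responses (limma). Cpa3 with MPA stayed below 0 in all 22, from -1.03 to -0.52 with adjusted p of 0.105 to 1.00. Of all genes, 1 passed with MPA with slide as a block and 1 with all 16 arrays in one fit, and for the difference of responses 1 with a replicate block and 1 without NET-A replicate 1, where leaving out each array in turn gave 0 to 1. Replicate numbers did not pair the samples, with correlations of same-numbered deviations of -0.23 to 0.24, and the replicate block gave 0 calls with MPA and 0 with NET-A. The median of the genes was -0.011 with MPA under normexp, and 0.59 with NET-A within slide 5. Asking for signal above background on all 8 arrays left Kit and Tpsb2 without a value with MPA and Ms4a2 without one with NET-A, which is where dim signal limits the comparison.

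Signs turned as follows, the cause not tested. Under normexp with MPA, Gata2 gave -0.011, Kit 0.26 and Tpsb2 0.58, with NET-A Fcer1a -0.15, Hdc -0.055 and Ms4a2 -0.37, and in the difference of responses Kit 0.76 and Tpsb2 0.82. Scaling on the array median gave 0.030 for Cma1 and 0.028 for Tpsb2 with NET-A, and -0.034 for Hdc in the difference of responses. Array weights gave -0.22 for Ms4a2 with NET-A, and 0.27 for Kit, 0.37 for Mcpt4 and 0.12 for Tpsb2 in the difference. Averaging probes gave 0.00082 for Gata2 in the difference. Within slide 5, NET-A gave 0.59 for Cma1, 0.65 for Cpa3, 0.69 for Mcpt4, 0.77 for Tpsb2 and -0.58 for Ms4a2.

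Leaving out each array in turn, MPA differences ran from -1.03 to -0.52 for Cpa3, -0.84 to -0.37 for Mcpt4, -0.79 to -0.37 for Cma1, -0.83 to -0.020 for Tpsb2, -0.86 to -0.35 for Kit, 0.021 to 0.53 for Hdc and -0.042 to 0.25 for Gata2. NET-A differences ran from -0.45 to 0.43 for Cma1, -0.97 to 0.15 for Cpa3, -1.12 to -0.0011 for Mcpt4, -0.72 to -0.42 for Kit, 0.094 to 0.40 for Gata2, -0.065 to 0.23 for Fcer1a, -0.26 to 0.44 for Hdc, -0.11 to 0.49 for Ms4a2 and -0.51 to 0.21 for Tpsb2. The difference of responses ran from -0.997 to 0.12 for Cpa3, -0.31 to 0.032 for Gata2, -0.16 to 0.55 for Hdc, -0.33 to 0.17 for Kit, -0.62 to 0.49 for Mcpt4 -0.77 to 0.087 for Tpsb2 and -1.01 to -0.13 for Cma1.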
